A study of Mus musculus with 14 samples.

Results

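Transcripts of 8 genes that build the sperm flagellum were followed in 14 bulk RNA libraries of c-KIT-positive spermatogonia, sorted from testes of C57BL/6J mice. The genes were chosen by name for their place in the tail: Akap3, Akap4 and Fscb of the fibrous sheath, Odf1 and Odf2 of the outer dense fibres, and the tektins Tekt1, Tekt2 and Tekt4, which are proteins of the axoneme. All 8 were found among the 24984 gene symbols of each count table, and all 8 had enough counts to be tested in both experiments. The series asked how gene expression in these cells depends on Cbx2, which encodes a chromobox protein of Polycomb complexes. For the deletion experiment, 2 libraries came from Rosa26-CreERT2; Cbx2 Flox/Δ mice injected 3 times with tamoxifen (200 µL of a solution of 20 mg/mL). Their 2 controls came from Rosa26-CreERT2; Cbx2 Flox/+ mice that received corn oil in 3 injections. Mice of both groups thus carried the recombinase and a floxed allele, and genotype and drug differ together between the groups. The Rosa26 locus that drives the recombinase is active in most cell types. In the 23KRA experiment, 5 libraries came from untreated mice homozygous for a Cbx2 allele with KR-to-A substitutions in the CaPS domain (Cbx2 23KRA/23KRA), and 5 from untreated Cbx2 +/+ mice. Ages were not given in the sources used here. The protocols name as many animals in each group as it has libraries, and do not say outright that each library is 1 animal; the p-values measure only the spread between libraries.

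The sperm tail has an axoneme of microtubules, which is wrapped in the midpiece and principal piece by outer dense fibres and, in the principal piece, by the fibrous sheath. The fibrous sheath holds A-kinase anchoring proteins and glycolytic enzymes, and the outer dense fibres are stiff keratin-like cables. Genes for these structures are known mostly for transcription in late spermatocytes and spermatids, after the spermatogonial stage, under factors such as CREM and the RFX family. Tektins are filament proteins of doublet microtubules and also occur in somatic motile cilia. ODF2 differs from the rest because it is also a component of centriole appendages in dividing cells.

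The stretches of DNA just upstream of the transcript starts show how these genes resemble one another at their promoters. They are printed for the fibrous sheath genes and the tektins, because some of these genes share letters there. Windows of 250 bases before to 50 bases after each start were taken from RefSeq (GRCm38.p6), at the most upstream start of each gene, and matched 7 of the 8 genes. The last 60 bases before the start are given 5′ to 3′ on the gene's strand. In Akap3 (chr6:126853038-126853097, plus strand), Akap4 (chrX:7067455-7067514, plus strand) and Fscb (chr12:64474899-64474958, minus strand), capitals mark a run of 20 bases that Akap3 and Akap4 share, and the TGATGTCA of Fscb.
Akap3: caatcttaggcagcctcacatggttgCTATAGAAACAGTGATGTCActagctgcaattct
Akap4: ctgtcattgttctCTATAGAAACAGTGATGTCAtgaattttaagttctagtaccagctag
Fscb: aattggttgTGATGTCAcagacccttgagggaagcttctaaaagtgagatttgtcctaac

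The shared run ends in the same TGATGTCA, a one-letter variant of the cAMP response element. It begins 34 bases before the start of Akap3 and 47 bases before the start of Akap4, and it occurred in only these 2 of the 32851 promoter windows searched on both strands. TGATGTCA itself was present in 3.62% of all windows, and in those of Akap3 (2 copies), Akap4 and Fscb, but not of Odf2 or the 3 tektins. No window of the 7 genes held the full palindrome TGACGTCA, the E-box CACGTG or the letters TATAAA, which were in 1.79%, 7.15% and 13.6% of all windows. In Tekt1 (chr11:72361883-72361942, minus strand), Tekt2 (chr4:126325689-126325748, minus strand) and Tekt4 (chr17:25471530-25471589, plus strand), capitals mark GTTGC, the core letters bound by RFX factors, on either strand (reading GCAAC on the other).
Tekt1: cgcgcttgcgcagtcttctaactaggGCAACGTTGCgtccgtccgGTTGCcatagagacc
Tekt2: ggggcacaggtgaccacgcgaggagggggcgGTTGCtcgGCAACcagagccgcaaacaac
Tekt4: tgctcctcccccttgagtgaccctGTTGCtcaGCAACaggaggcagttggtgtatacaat

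The paired form, GTTGC followed after 3 bases by GCAAC, stood 29 bases before the start of Tekt2 and 36 bases before that of Tekt4, and was found in 0.225% of all windows. GTTGC alone is common, in 35.2% of windows, and each tektin window held 3 copies, Akap3, Akap4 and Fscb 1 each, and Odf2 none. The 3 fibrous sheath windows held no CpG at all, against a median of 7 in all windows, whereas Odf2 had 26, Tekt1 20, Tekt2 14 and Tekt4 3. The motifs were chosen with these sequences in view, and a match of letters is a description, not a binding site. The RefSeq starts of Fscb, Odf2 and Tekt1 lie 208, 499 and 560 bases from the GENCODE start of the gene, and that of Tekt4 lies 16975 bases inside the GENCODE gene.

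Transcripts of every flagellum gene were found in all libraries of cells sorted for c-KIT. Expressed per kilobase of exon, the scale on which genes can be compared, Akap4 had the highest level in controls of the deletion experiment at 163 ± 8.95 CPM per kb (SD, n = 2; CPM is a count scaled to a common library size). Odf2 followed at 77.2 ± 0.0862 and Akap3 at 65.1 ± 0.181 CPM per kb, then Tekt2 at 50.9 ± 2.61 and Tekt1 at 43.3 ± 3.75 CPM per kb. The lowest 3 levels, of Fscb (29.7 ± 4.09), Odf1 (26.3 ± 4.47) and Tekt4 (25.9 ± 1.54 CPM per kb), did not differ beyond their spread, while every other pair of neighbours in this order lay further apart than the sum of their SDs. In wild-type animals of the 23KRA experiment the order was Odf2 at 62.8 ± 13.9, Akap4 at 25.2 ± 11.3, Odf1 at 21.4 ± 10.7, Akap3 at 19.9 ± 11.2 and Tekt2 at 15.4 ± 3.26 CPM per kb (SD, n = 5). Tekt1 (7.67 ± 1.10), Fscb (5.98 ± 3.55) and Tekt4 (4.30 ± 2.14 CPM per kb) came last, and beyond Odf2 each gene lay within the spread of the next, except Tekt2 over Tekt1. The experiments used different library kits, so levels are set side by side only. Exon length was the union of all annotated exons, which is 9.92 kb for Odf2 and understates its level where shorter forms are expressed.

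**Figure D1:**
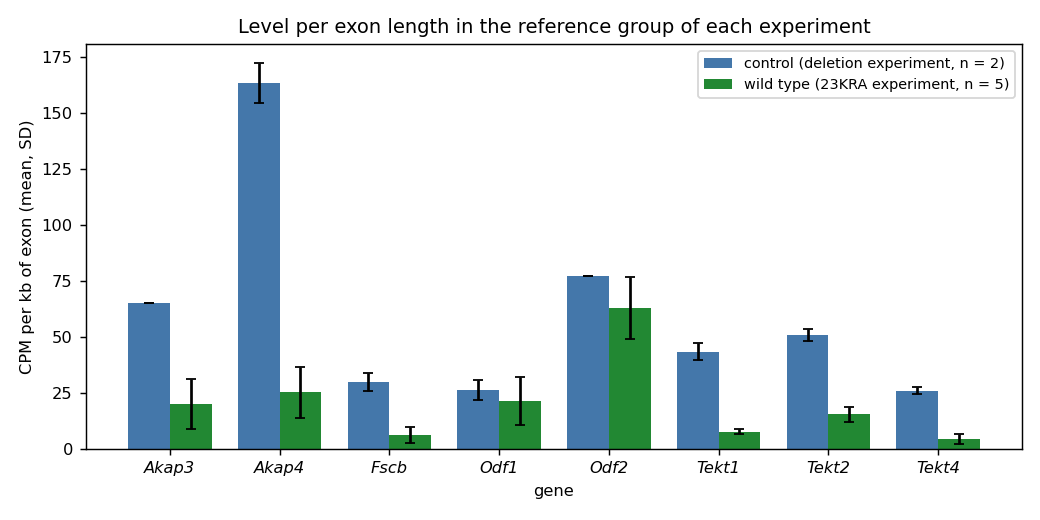
Level of each flagellum gene in CPM per kilobase of exon (vertical axis) in the control group of the deletion experiment (n = 2) and the wild-type group of the 23KRA experiment (n = 5); bars are means and whiskers SD. Akap4 stands highest in the first group at 163 CPM per kb and Odf2 in the second at 62.8.

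The sorted cells carried the transcripts of their label. Kit stood at 231 ± 39.5 CPM in controls and 254 ± 15.7 CPM in wild type (SD, n = 2 and 5), and Stra8 at 536 ± 41.2 and 726 ± 64.9 CPM. Spermatid markers were present as well: the summed level of 14 genes, with protamines and transition proteins among them, was 3058 to 3377 CPM in controls and 314 to 1085 CPM in wild-type libraries. In bulk RNA, fewer cells of a type and less RNA per cell cannot be told apart. Libraries held 28169990 to 31166500 counts in the deletion and 14562564 to 19814511 counts in the 23KRA experiment. The flagellum genes drew from 506 to 24110 counts per gene and library in the deletion experiment, and from 20 to 13393 in the other.

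Deletion of Cbx2 was accompanied by lower values for most flagellum genes, but no change passed the test. For all 8 genes the log2 fold change was negative (median -0.15, against -0.0044 over 16725 genes tested, 51% of which were below 0). None of the 8 passed edgeR's quasi-likelihood test after Benjamini-Hochberg adjustment, which called 0.012% of all genes (2 genes), nor did any pass by DESeq2 or limma-voom. An unadjusted p under 0.05 was reached by 2, both lower in deleted animals, as by 4.74% of all genes (2.69% lower). In 5 of 8 genes (both outer dense fibre genes and the 3 tektins) both deleted libraries lay below both controls, as in 17.5% of all genes tested.

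Akap4, Akap3 and Fscb, of the fibrous sheath, had the smallest differences of the 8 genes. Akap3 was close to Tekt1 (-0.15, SE 0.12), and the 11 other sheath genes tested had a median of -0.22. Akap4, on the X chromosome (chrX:7067519-7078609, GENCODE on GRCm38, plus strand), encodes the main anchoring protein of the sheath, which tethers protein kinase A. It had 513 and 475 CPM in control replicates 1 and 2 and 432 and 514 CPM in deleted replicates 1 and 2. The groups overlapped, with deleted replicate 1 alone below the controls, and the log2 difference was -0.06 (SE 0.11), with adjusted p = 0.974 by edgeR. Akap3 (chr6:126853098-126874308, plus strand), its partner in sheath assembly, measured 206 and 205 CPM in control libraries, against 172 and 206 in the deleted pair. Again deleted replicate 1 alone was low, and the groups differed by -0.12 on the log2 scale (SE 0.11), with adjusted p = 0.971 by edgeR. Fscb (chr12:64471330-64474690, minus strand), a calcium-binding sheath protein, measured 109.7 and 90.2 CPM in control libraries, against 93.4 and 106 in the deleted pair. Its groups interleaved, and at -0.0027 (SE 0.12; edgeR adjusted p = 0.998) its log2 fold change was the nearest to 0 of the 8; it was above 0 under DESeq2 size factors (0.0040).

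Odf1 had the largest difference of the 8. Odf1 (chr15:38219203-38226735, plus strand) encodes a cysteine-rich protein of the small heat shock family that is a major constituent of outer dense fibres. It measured 25.6 and 32.6 CPM in control libraries, against 17.8 and 24.1 in the deleted pair, 71.8% of the control level by the fit. The groups did not overlap, though control replicate 1 and deleted replicate 2 lay close, and the log2 fold change of -0.48 (SE 0.16; unadjusted p = 0.0058 by the edgeR test) did not pass over all genes (adjusted p = 0.971). Odf2 (chr2:29889221-29931746, plus strand), of the outer dense fibres and of centriole appendages, measured 765 and 766 CPM in control libraries, against 635 and 739 in the deleted pair. Both deleted libraries were below the controls, and the groups differed by -0.16 on the log2 scale (SE 0.11), with adjusted p = 0.971 by edgeR.

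Of the 3 tektins, Tekt4 had the largest difference and the closest deleted replicates. Tekt4 (chr17:25454615-25476602, plus strand) measured 53.9 and 49.5 CPM in control libraries, against 39.1 and 39.5 in the deleted pair. The gap between groups was wider than the range within either, with 76.0% of the control level and a log2 fold change of -0.40 (SE 0.13; unadjusted p = 0.00435 and adjusted p = 0.971 by the edgeR test). Tekt2 (chr4:126322121-126325688, minus strand) measured 100.3 and 93.2 CPM in control libraries, against 85.2 and 86.8 in the deleted pair (-0.17 on the log2 scale, SE 0.11; adjusted p = 0.971 by edgeR). Tekt1 (chr11:72344722-72362442, minus strand) measured 74.5 and 65.9 CPM in control libraries, against 62.0 and 64.6 in the deleted pair (-0.15, SE 0.12; edgeR adjusted p = 0.971). In both, the deleted libraries were below the controls, and in Tekt1 the nearest 2 libraries of opposite groups were almost level. Tekt2 shares 396 exonic bases with an antisense transcript and Odf2 shares 97 with a small nuclear RNA gene; no strand setting is given in the sources used here, so such reads cannot be told apart.

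**Figure D2:**
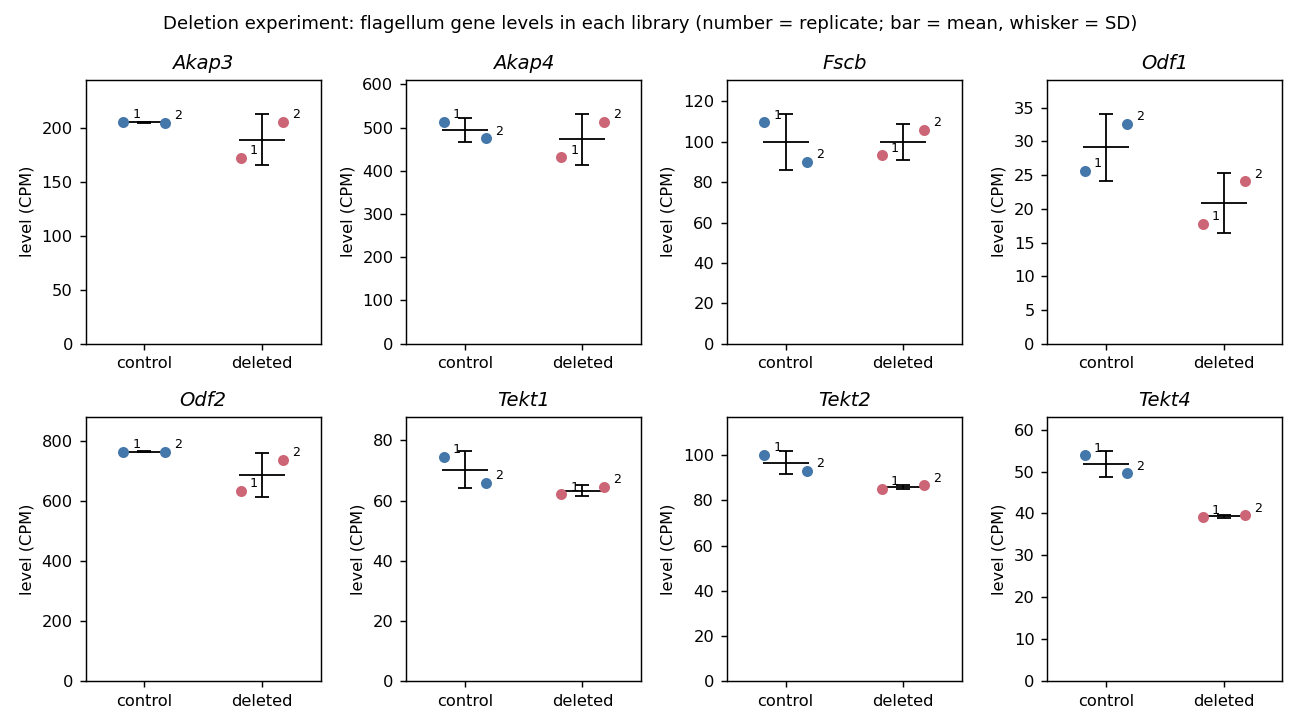
Level of each flagellum gene (CPM, vertical axis from 0) in the 2 control and 2 deleted libraries; points are libraries numbered by replicate, bars group means and whiskers SD. Deleted replicate 1 is the lowest library for 7 of the 8 genes, and Odf1, Odf2, Tekt1, Tekt2 and Tekt4 show no overlap between groups.

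Deleted replicate 1 was the lowest of the 4 libraries for 7 of 8 genes, and the counts rest on it in part. Without it, 5 of 8 genes were below 0 and the median log2 fold change was -0.08; Akap3, Akap4 and Fscb then had values of 0.0080, 0.06 and 0.09. Without control replicate 1, 6 were below 0, with Akap4 at 0.0036 and Fscb at 0.16. Without deleted replicate 2, Odf1 had a log2 fold change of -0.71, with a median of -0.23 over the 8 genes. This fit leaves 1 deleted library, which is assumed to vary as the controls do. Markers of later germ cells moved with the flagellum genes. All 14 spermatid markers were below 0 (median -0.21; Prm1 with 1101 ± 117 CPM in control and 979 ± 116 in deleted animals, and Prm2 with 761 ± 18.3 and 655 ± 57.7 CPM, SD, n = 2), none passed, and their summed level was 2639 and 2999 CPM in the deleted libraries. Of 8 pachytene spermatocyte markers, 7 were below 0 (median -0.17), with Ldhc at 490 ± 9.07 against 425 ± 25.7 CPM and Ybx3 at 331 ± 11.2 against 299 ± 43.2 CPM. Of 9 spermatogonial markers 3 were below 0 (median 0.0019), and their sum was 2221 to 2325 CPM in controls and 2296 to 2312 CPM in deleted animals. Whether the share of later germ cells has a part in the lower flagellum values was not tested.

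Markers of multiciliated somatic cells, which also use tektins, were low and little different. The 9 genes summed to 96.4 to 109 CPM in controls and 92.6 to 103 CPM in deleted animals, with Deup1 at 56.2 against 53.3 CPM and Pifo at 17.9 against 17.6 CPM. Mcidas, a master regulator of multiciliation, was at 0.787 ± 0.0107 against 0.754 ± 0.375 CPM (SD, n = 2), and Sntn, a marker of motile ciliary tips, had no count in any of the 14 libraries. Of the Leydig cell markers, 1 of 6 passed: the steroidogenic enzyme Cyp17a1 fell (6.07 ± 1.84 against 1.66 ± 0.281 CPM, SD, n = 2; log2 fold change -1.86, SE 0.26; edgeR adjusted p = 0.0031). Star, which carries cholesterol into mitochondria, was at 4.90 ± 0.0913 against 4.69 ± 1.46 CPM, and the 6 genes summed to 21.0 to 24.7 CPM in controls and 16.1 to 16.4 CPM in deleted animals. Macrophage markers summed to 49.3 CPM in deleted replicate 1, the library lowest for 7 of 8 flagellum genes, and to 20.3 to 31.1 CPM in the other 3. The part of these cells in the flagellum values was not tested.

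**Figure D3:**
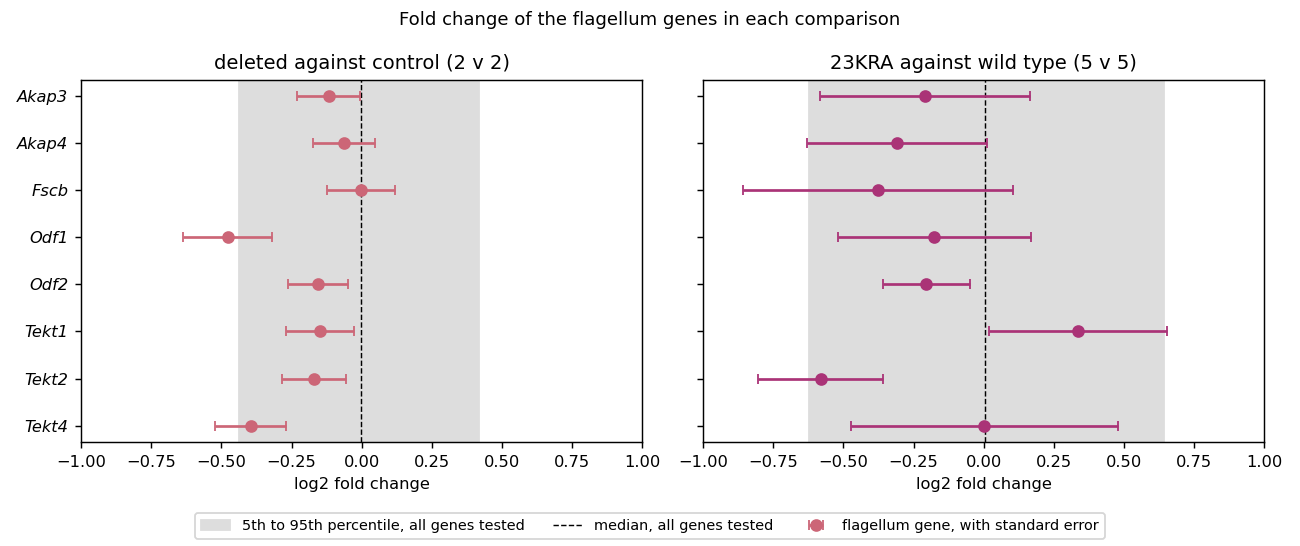
Log2 fold change (horizontal axis) with its standard error for each flagellum gene, in deleted against control (left, 2 against 2) and 23KRA homozygous against wild type (right, 5 against 5); the grey band spans the 5th to 95th percentile of all genes tested and the dashed line their median. All points on the left are at or below 0, with Odf1 lowest at -0.48, and the standard errors on the right are wider.

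Other flagellum genes were mostly lower in deleted animals too, again with none past the test. Of 89 further genes listed by structure, 85 were matched and 84 tested; 69 were below 0 (82.1%, against 51% of all genes), 37 had both deleted libraries below both controls and 2 the reverse (17.5% and 15.6% of all genes). By edgeR, DESeq2 or limma-voom none passed, and 13 had an unadjusted p under 0.05 by edgeR, all lower. Of all genes tested, 4.74% had such a p, and 2.69% had it and were lower. Without deleted replicate 1, or without control replicate 1, 56 of the other flagellum genes were below 0. All 11 other fibrous sheath genes were below 0 (median -0.22), with Ropn1l at 246 ± 3.80 against 203 ± 10.4 CPM and Spa17 at 172 ± 1.02 against 160 ± 1.69 CPM (SD, n = 2). All 7 genes of the midpiece and annulus were below 0 (median -0.27), and in all 7 the groups did not overlap. Smcp, of the mitochondrial capsule, was at 535 ± 61.1 against 428 ± 29.7 CPM and Gykl1 at 131 ± 12.6 against 112 ± 0.121 CPM. All 11 genes of the sperm calcium channel CatSper and the sperm sodium-proton exchanger were below 0 (median -0.23), with Catsper2 at 70.5 ± 11.1 against 60.3 ± 6.65 CPM and Efcab9 at 49.7 ± 0.758 against 40.8 ± 2.15 CPM.

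Outer dense fibre genes other than the members were below 0 in 6 of 7 (median -0.20), with Oaz3 at 281 ± 4.83 against 243 ± 14.3 CPM and Spag4 at 90.0 ± 7.35 against 80.2 ± 0.340 CPM. Axonemal dyneins were below 0 in 8 of 10 (median -0.19; Dnali1 at -0.25, SE 0.15, and Dnah8 at -0.10, SE 0.15, on the log2 scale). The median difference was smaller for other tektins and microtubule inner proteins (9 of 15 below 0, median -0.10; Cfap20 at 113 against 112 CPM and Mns1 at 99.2 against 108 CPM). Of the other tektins, Tekt5 had a log2 fold change of -0.31 (SE 0.14) and Tekt3 one of -0.10 (SE 0.14). In this list 3 of 15 genes had an unadjusted p under 0.05 by edgeR, against 4.74% of all genes. The median was small too for radial spokes, the central pair and nexin links (17 of 23 below 0, median -0.07; Cfap206 at 150 ± 13.5 against 136 ± 8.86 CPM and Cfap69 at 84.4 against 89.2 CPM). Centriole appendage genes, the other setting of ODF2, were below 0 in 7 of 9 (median -0.07), with Cep83 at 270 ± 19.4 against 266 ± 5.27 CPM and Cntrl at 199 ± 4.05 against 185 ± 10.5 CPM. Regulators of spermatid and cilia genes were below 0 in 7 of 10 (median -0.16), but the most abundant, Taf7l and Tbpl1, were at 863 against 876 CPM and 164 against 166 CPM. None of these genes passed the edgeR test.

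In the 23KRA experiment the flagellum genes varied widely between libraries of 1 genotype, and none differed between genotypes past the test. Of the 8 genes, 6 had a log2 fold change below 0 and 2 above, with a median of -0.21 against 0.0034 over 14208 genes tested, of which 49.2% were below 0. None passed, where the edgeR test called 0% of all genes. The genotypes overlapped for all 8 genes; of all genes tested, 0.274% had every homozygote below every wild type and 0.436% every homozygote above. DESeq2 and limma-voom also called none, and of the 8 only Tekt2 had an unadjusted p under 0.05 by edgeR, as did 3.04% of all genes (1.36% lower).

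Tekt2 had 26.5, 21.2, 34.2, 27.8 and 36.6 CPM in wild-type replicates 1 to 5 and 19.6, 12.3, 14.4, 25.3 and 26.1 CPM in homozygous replicates 1 to 5. Homozygous replicates 1 to 3 were below every wild-type library and replicates 4 and 5 were within the wild-type range. Its log2 fold change was -0.58 (SE 0.22; unadjusted p = 0.0164 and adjusted p = 1.00 by the edgeR test), and it lay between -0.71 and -0.45 under every alternative run. Tekt1 measured 12.8, 10.2, 11.1, 13.5 and 14.5 CPM in the wild-type libraries, against 16.0, 5.87, 9.30, 18.8 and 28.4 in the homozygous ones, which spanned values below and above all wild-type libraries. On the log2 scale it differed by 0.34 (SE 0.32), with adjusted p = 1.00 by edgeR. Tekt4 measured 3.78, 4.85, 13.2, 8.72 and 12.4 CPM in the wild-type libraries, against 5.75, 1.32, 6.41, 13.96 and 15.5 in the homozygous ones. The means were 8.59 ± 4.27 and 8.59 ± 5.97 CPM (SD, n = 5), and the log2 fold change of 0.0028 (SE 0.48) changed sign with the scaling.

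The genotypes overlapped for the outer dense fibre and fibrous sheath genes, with homozygous replicate 2 alone below every wild-type library in all 5. Odf1 measured 19.9, 11.8, 28.6, 16.3 and 41.8 CPM in the wild-type libraries, against 18.8, 8.11, 16.1, 20.5 and 41.2 in the homozygous ones, with replicate 5 highest in both groups (log2 fold change -0.18, SE 0.34). Odf2 measured 612, 403, 731, 619 and 750 CPM in the wild-type libraries, against 505, 378, 468, 584 and 768 in the homozygous ones (-0.20, SE 0.15). Of the 8 genes, Odf2 varied least, with a spread over the 10 libraries of 2.03-fold from lowest to highest. Akap3 measured 45.1, 18.8, 108, 55.1 and 86.6 CPM in the wild-type libraries, against 39.2, 15.3, 49.0, 75.1 and 92.7 in the homozygous ones (-0.21, SE 0.37). Akap4 measured 54.2, 29.3, 93.0, 89.4 and 115 CPM in the wild-type libraries, against 61.7, 23.9, 38.9, 69.7 and 113 in the homozygous ones (-0.31, SE 0.32). In both anchoring protein genes replicate 2 was the lowest library of its genotype. Fscb measured 9.32, 5.75, 27.5, 24.7 and 33.2 CPM in the wild-type libraries, against 18.9, 1.85, 11.2, 16.2 and 29.1 in the homozygous ones (-0.38, SE 0.48), so its libraries spanned 18-fold, the most of the 8 genes, with 28 counts in the lowest library. Each of these 5 genes had an edgeR adjusted p of 1.00.

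**Figure D4:**
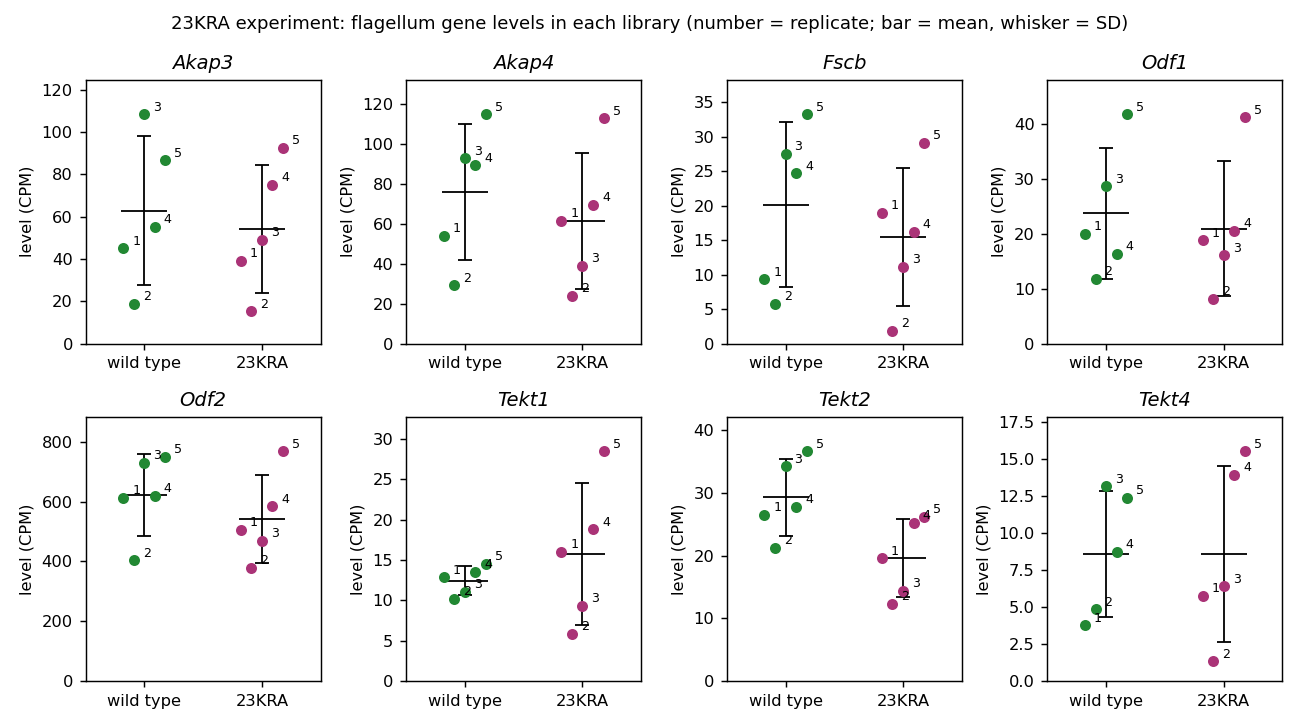
Level of each flagellum gene (CPM, vertical axis from 0) in the 5 wild-type and 5 homozygous 23KRA libraries; points are libraries numbered by replicate, bars group means and whiskers SD. The genotypes overlap for every gene, and homozygous replicate 2 is the lowest library throughout.

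The lowest library was the same for every flagellum gene, while the places above it differed between genes. Homozygous replicate 2 was the lowest of 10 libraries for all 8 genes, wild-type replicate 2 was among the lowest 2 for 5 of them, and the highest was wild-type replicate 5 for 4 genes, homozygous replicate 5 for 3 and wild-type replicate 3 for 1. Summed over the 8 genes, homozygous replicate 2 had 447 CPM and wild-type replicate 2 had 505 CPM, against 1114 and 1090 CPM in homozygous and wild-type replicates 5. Odf2 made up most of each sum, with 378, 403, 768 and 750 CPM in these libraries in turn. From lowest to highest library, Tekt4 spanned 11.8-fold, Akap3 7.09-fold, Odf1 5.15-fold, Tekt1 4.84-fold, Akap4 4.81-fold and Tekt2 2.97-fold. The median span of 10456 genes with a mean of at least 5 CPM was 1.72-fold, and 35.0% of these genes spanned at least as much as Odf2, 16.7% as much as Tekt2 and 6.97% or fewer as much as each other member.

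Spermatid markers took the same order at both ends. Their summed level was 250 CPM in homozygous replicate 2 and 314 CPM in wild-type replicate 2, and 1103 and 1085 CPM in homozygous and wild-type replicates 5, a span of 4.41-fold. Prm2 measured 315 ± 142 CPM without and 249 ± 136 CPM with the homozygous mutation, and Tnp1 117 ± 46.5 and 116 ± 64.2 CPM (SD, n = 5). Pachytene markers spanned 2.25-fold, also lowest in homozygous replicate 2 and highest in wild-type replicate 5, with Hspa2 at 122 ± 30.8 against 108 ± 27.9 CPM. Multiciliated cell markers spanned 2.59-fold with the same extremes, but at only 17.9 to 46.5 CPM in sum, and Gmnc and Sntn had no count in any 23KRA library. Markers of differentiating spermatogonia spanned 1.21-fold, highest in wild-type replicate 2 and lowest in homozygous replicate 5. Centriole appendage genes spanned 1.09-fold (Cntrl at 732 ± 15.5 against 706 ± 45.2 CPM and Cep83 at 403 ± 18.4 against 408 ± 24.3 CPM). Whether the share of later germ cells has a part in these differences between libraries was not tested. Summed markers of somatic cells were at most 23.3 CPM for Leydig and 22.7 CPM for Sertoli cells in any 23KRA library, and those of macrophages reached 93.0 CPM in wild-type replicate 3. Their part in the flagellum values was not tested either.

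**Figure D5:**
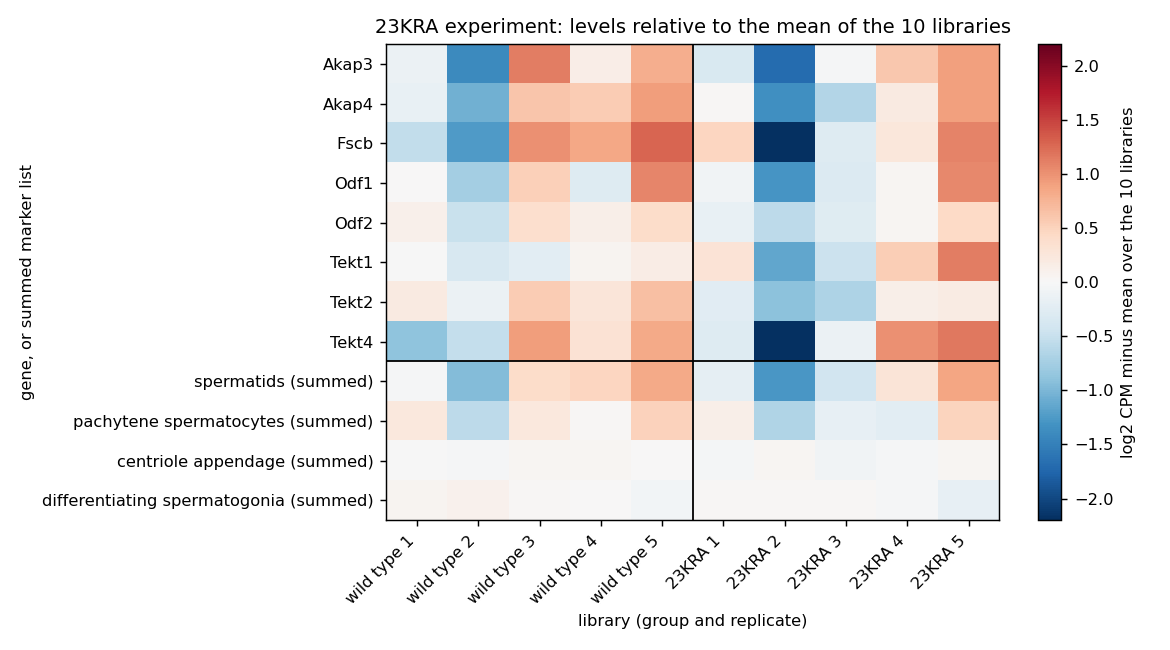
Level of each flagellum gene and of 4 summed marker lists in the 10 libraries of the 23KRA experiment, as log2 CPM minus the mean over the libraries (colour); columns are libraries by genotype and replicate. Both replicates 2 are mostly blue and both replicates 5 mostly red for flagellum genes and spermatid markers, while the centriole appendage and spermatogonial lists are nearly white. Tekt2 in wild-type replicate 2 is nearly white too (-0.13).

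Genes whose levels followed the summed flagellum level most closely over these 10 libraries, after the mean of each genotype was removed, were Fam217a (Pearson r = 0.996), Spz1 (0.994), Dbil5 (0.992), 4930503B20Rik (0.990) and Erich3 (0.990). They were taken from 13702 genes, among which the median r was -0.03 and the 95th percentile 0.76, and the points share library depth and preparation. Their log2 fold changes were -0.43, -0.58, -0.29, -0.29 and -0.40 in the 23KRA experiment and -0.09, -0.13, -0.19, -0.12 and -0.05 in the deletion experiment. Odf2 made up most of the summed flagellum level, with a mean of 623 CPM in wild type against 856 CPM for the 8 genes together.

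Of the other flagellum genes, 83 were tested in the 23KRA experiment, and 63 (75.9%) were below 0 against 49.2% of all genes. None separated the genotypes or passed by edgeR, DESeq2 or limma-voom. By edgeR 3 had an unadjusted p under 0.05, as did 3.04% of all genes. The number below 0 was 55 without homozygous replicate 2, and the median of the 8 members was then -0.03, with 4 below 0. Without homozygous replicate 5 that median was -0.53, without wild-type replicate 2 it was -0.39, and without wild-type replicates 5 and 3 in turn it was -0.09 and -0.12. By structure, 8 of 11 other fibrous sheath genes were below 0 (median -0.21; Spa17 at 91.7 ± 33.5 against 75.3 ± 26.5 CPM and Txndc2 at 50.7 ± 21.2 against 41.3 ± 22.3 CPM). So were 5 of 7 outer dense fibre genes (median -0.11; Oaz3 at 39.0 ± 20.6 against 35.0 ± 23.3 CPM) and 5 of 7 of the midpiece and annulus (median -0.30; Smcp at 116 ± 49.2 against 89.7 ± 59.8 CPM). Axonemal dyneins were below 0 in 8 of 10 (median -0.34; Dnah8 at 89.0 ± 20.3 against 83.1 ± 14.8 CPM). Microtubule inner proteins were below 0 in 10 of 15 (median -0.14; Mns1 at 271 ± 33.1 against 245 ± 21.0 CPM), and radial spoke, central pair and nexin genes in 18 of 22 (median -0.31; Ccdc40 at 51.9 ± 5.25 against 49.8 ± 7.85 CPM). CatSper and exchanger genes were below 0 in 9 of 11 (median -0.26; Catsper2 at 23.0 ± 0.857 against 19.8 ± 5.47 CPM), regulators in 7 of 10 (median -0.10; Taf7l at 835 ± 32.0 against 814 ± 71.0 CPM) and centriole appendage genes in 4 of 8 (median -0.02).

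The response of the 8 genes was not shown to differ between the experiments. The test had standard errors of 0.30 (Odf2) to 0.88 (Fscb) on the log2 scale, so differences of that size could have been missed. In 1 edgeR fit of the 4 groups, the effect of 23KRA minus the effect of deletion was largest for Tekt1 (0.50, SE 0.53) and Tekt4 (0.42, SE 0.83), and lowest for Tekt2 (-0.39, SE 0.36) and Fscb (-0.36, SE 0.88). No member passed (edgeR adjusted p = 1.00 for each, smallest unadjusted p = 0.288), and of 17227 genes 112 had an unadjusted p under 0.05 and 0 passed.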

How the data were processed

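Each experiment has its own table of gene counts, which the authors deposited without normalization for 24984 gene symbols. Per the submitters' processing notes, the tools were STAR 2.5.3, Subread 1.5.0 with featureCounts, Trim Galore 0.4.3 and SAMtools 1.4.1, and the build was mm10. The sources used here do not give the annotation, the strand setting or how multimapping reads were handled. Per the labels' protocols, the kits differed (SMART-Seq mRNA for deletion, stranded total RNA with depletion of ribosomal cDNA for 23KRA), so the tables were normalized and tested apart; all 14 samples are labelled as polyA RNA, which differs from the total RNA kit named for 23KRA. Columns were matched to samples by name.

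Counts were filtered by filterByExpr, scaled by TMM and tested with edgeR 4.0.16 (quasi-likelihood F test, two-sided, Benjamini-Hochberg adjustment over all genes tested, threshold 0.05) in R 4.3.3. The standard error is the log2 fold change divided by the square root of F. The difference between experiments was an interaction contrast in 1 fit of 14 libraries. Positions and exon lengths are from GENCODE M21 on GRCm38, the assembly also called mm10.

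The 8 genes and the gene lists were chosen with earlier results of these data known. The rule for names took all 8 genes; of each flagellum or regulator list the genes that passed, or else the 2 of highest mean CPM; of each cell type list the 2 of highest mean CPM; and the 5 genes with the highest r of log2(CPM + 1). Where a list gives 1 gene, the other is left out for length. Kit, Mcidas, Sntn, Gmnc, Tekt3 and Tekt5 were named after their values were seen. Alternatives were the size factors and test of DESeq2 1.42.0, upper quartile scaling, no filter, limma 3.58.1 voom, a replicate block and leaving out libraries. Numbers of genes below 0 under these alternatives were a later addition, chosen after seeing the data. Counting intervals would cover counting error only, because amplified reads are not independent molecules.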

Additional observations from a re-analysis of the deposited data

How the results depend on the processing

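In the deletion experiment edgeR called 2 genes, against 8 without a filter, 1 by DESeq2, 1 by limma-voom and 2 to 73 with 1 library left out (11 without control replicate 1, 73 without deleted replicate 2). Of the 8 flagellum genes 0 to 1 were called with 1 library left out, of the other flagellum genes 0 to 2, and the number of the 8 below 0 ran from 5 to 8; in each case the highest count of calls came without deleted replicate 2. Log2 fold changes with 1 library left out ran from -0.25 to 0.0080 for Akap3, -0.20 to 0.060 for Akap4 and -0.14 to 0.16 for Fscb. Fscb was also above 0 with DESeq2 size factors (0.0040), the DESeq2 test (0.0039) and limma-voom (0.0027). In the 23KRA experiment the same ranges were -0.49 to 0.079 for Akap3, -0.58 to 0.13 for Odf1 and -0.32 to 0.28 for Tekt4. Tekt4 was below 0 with DESeq2 size factors (-8.3e-05), no filter (-0.0015), the DESeq2 test (-0.00086) and limma-voom (-0.18). Causes of these changes were not tested. The direction of Odf1, Odf2 and the 3 tektins in the deletion experiment, and of Akap4, Fscb, Odf2, Tekt1 and Tekt2 in the 23KRA experiment, was the same under every alternative run. The lowest counts behind a value were 20 for Tekt4 and 28 for Fscb, both in homozygous replicate 2.

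Replicate numbers do not pair the samples by the labels. The correlation of deviations of same-numbered samples was 0.253 with 2 pairs in the deletion experiment, and -0.023 to 0.266 in the 23KRA experiment, where wild-type replicate 3 matched homozygous replicate 5 best and the others their own number. With a replicate block, 62 genes were called in the deletion experiment, among them 2 of the 8 (Odf1, adjusted p = 0.0233 by edgeR, and Tekt4, 0.0482) and 2 other flagellum genes, and Fscb was at 0.0012. With the block, 2 genes were called in the 23KRA experiment, none of them a flagellum gene listed here, and Tekt4 was at -0.20.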
